A study of Mus musculus with 8 samples.

Results

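Pericytes and vascular smooth muscle cells, together the mural cells of blood vessels, were followed through 9 genes that mark them: Pdgfrb, Rgs5, Kcnj8, Abcc9, Cspg4, Notch3, Acta2, Myh11 and Tagln. They were chosen by name from the deposited tables of 54532 genes and each of the 9 names matched 1 row in each table. Of the 9, 8 had enough counts to be tested and Tagln did not. RNA sequencing measured their transcripts in 8 libraries from mouse retina. In 4 libraries the label was sIVs, which the series title expands as small intracellular vesicles, and in 4 it was PBS, the control group; each group held replicates 1, 3, 4 and 5. The labels gave no strain, age, dose, route, time or injury for either group, and did not say whether the libraries of a group came from separate animals, so p-values measure only the spread between these libraries, which may be technical. Values below are listed in the order of replicates 1, 3, 4 and 5.

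Pericytes sit on the outside of capillaries, within the basement membrane they share with the endothelium, and cover the capillaries of the retina densely. They are recruited by platelet-derived growth factor from endothelial cells, which acts on the receptor encoded by Pdgfrb, and their loss is a known early feature of diabetic retinopathy. Arterioles carry smooth muscle cells instead, with a contractile apparatus of smooth muscle actin (Acta2), smooth muscle myosin heavy chain (Myh11) and transgelin (Tagln), whereas capillary pericytes hold little of it.

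Total counts ran from 13803958 to 16622259 per library. The 10 rod genes that mark the labelled tissue were abundant, with a summed level of 30810 to 58130 CPM (counts scaled to the normalized library size) in PBS and 36250 to 59410 CPM in sIVs retinas. One library stood apart, sIVs replicate 4. Across 14222 tested protein-coding genes its difference from the mean of the other 7 libraries fell with listed gene length (Spearman rho = -0.625 across genes, which are not independent replicates). Its median log2 difference was 0.76 for genes under 2500 bases and -0.70 for genes of 10000 bases or more. In sIVs replicate 5 the difference also fell with length, but less (rho = -0.291, with medians of 0.10 and -0.12 in these classes). In the rest rho lay between 0.231 and 0.421, against means that include sIVs replicate 4. That library, sIVs replicate 4, also had the highest summed level of 10 pigment epithelium genes, 417 CPM against at most 70.1 CPM elsewhere. Log2 differences between the groups of the genes tested are therefore given with and without sIVs replicate 4. Those without it still include sIVs replicate 5.

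Per gene length, Rgs5 was by far the highest of the 9 genes and Tagln the lowest. The order by mean FPKM (fragments scaled to gene length in kilobases and to library size, as deposited) over the 8 libraries was Rgs5 at 23.0, Pdgfrb at 4.75, Acta2 at 2.98, Kcnj8 at 1.86, Notch3 at 1.85, Abcc9 at 1.71, Myh11 at 0.58, Cspg4 at 0.51 and Tagln at 0.27. Rgs5 exceeded Pdgfrb in 8 of 8 libraries, with a ratio of means of 4.84, and Abcc9 exceeded Myh11 in 8 of 8, with a ratio of 2.97. The other neighbours in the order changed places in at least 1 library. Kcnj8, Notch3 and Abcc9 formed a middle group whose order was not fixed: Kcnj8 was above Notch3 in 3 of 8 libraries and Notch3 above Abcc9 in 6 of 8. Among all 17004 genes tested, Rgs5 lay above 87.0% by mean FPKM and Pdgfrb above 47.2%, while Cspg4 and Myh11 lay above 9.19% and 10.6%.

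**Figure D1:**
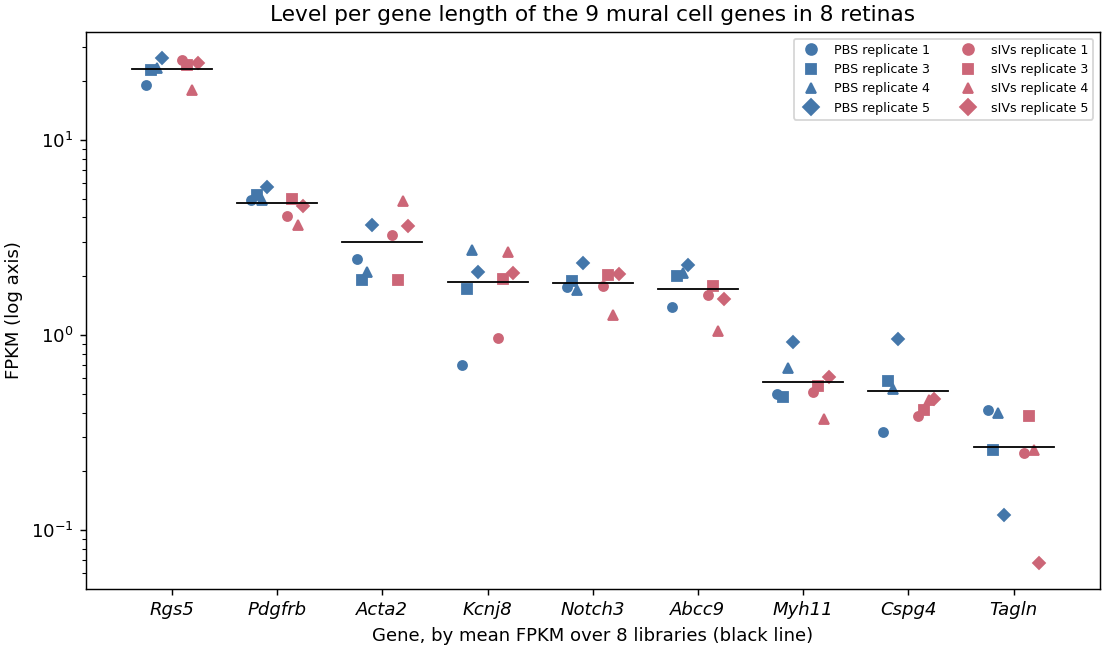
FPKM of each of the 9 genes in each library on a log axis, genes ordered by the mean over 8 libraries (black line), with colour for the group and symbol for the replicate number. Rgs5, at a mean of 23.0 FPKM, lies above all others in every library, and Kcnj8, Notch3 and Abcc9 overlap.

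Between sIVs and PBS retinas, none of the 8 tested genes passed the test. By the quasi-likelihood test of edgeR, 0 of 17004 genes (0.0%) passed at an adjusted p of 0.05, and 255 (1.5%) fell under 0.05 before adjustment. DESeq2 called 0 genes, with 322 (1.89%) before adjustment, and limma-voom with quality weights called 0, with 455 (2.68%). No member reached an unadjusted p of 0.05, and none had groups that did not overlap, as 2.01% of all genes tested had. The log2 difference (sIVs minus PBS) was below 0 for 5 of the 8 members, with a median of -0.18, against 48.7% of all genes tested and their median of 0.01. Without sIVs replicate 4, described above, it was below 0 for 5 of 8 members, Kcnj8 taking the place of Notch3, against 49.7% of all genes. In these bulk libraries fewer cells of a type and less RNA per cell cannot be told apart.

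Pdgfrb (chromosome 18, 61045150 to 61085061, plus strand; all coordinates mm10), the receptor that recruits pericytes, stood at 27.4, 29.1, 27.3 and 31.9 CPM in PBS and at 22.9, 27.7, 20.6 and 25.6 CPM in sIVs retinas. The groups overlapped through a single library: sIVs replicate 3 lay above PBS replicates 1 and 4, and the other 3 sIVs libraries lay below all 4 PBS libraries. The means were 28.9 ± 2.16 and 24.2 ± 3.10 CPM (SD, n = 4 each), which is a difference on the log2 scale of -0.26 ± 0.13 (SE; 95% interval -0.54 to 0.03; edgeR adjusted p = 0.81). Without sIVs replicate 4 the difference was -0.19. Of the 8 members tested Pdgfrb had the smallest unadjusted p.

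Notch3 (chromosome 17, 32120820 to 32166880, minus strand), a receptor of mural cells that is needed for arterial smooth muscle to mature, stood at 14.4, 15.4, 13.8 and 19.1 CPM in PBS and at 14.6, 16.6, 10.4 and 16.8 CPM in sIVs retinas. The highest value was PBS replicate 5 and the lowest sIVs replicate 4, with the other 6 libraries between them in no order by group. The log2 difference was -0.10 ± 0.18 (SE; 95% interval -0.52 to 0.32; edgeR adjusted p = 0.868), and 0.03 without sIVs replicate 4. By the exons of GENCODE M21, the non-coding gene Gm17276 on the opposite strand shares 488 bases with Notch3. The start and end of Notch3 there differ from the deposited ones. Gm17276 held 78 counts over the 8 libraries. Whether counting used strand is not given in the sources used here, and the effect of the overlap on Notch3 counts was not tested.

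Rgs5 (chromosome 1, 169655501 to 169695813, plus strand), which speeds the shut-off of G protein signals and is among the most abundant pericyte transcripts, stood at 87.9, 105, 108 and 122 CPM in PBS and at 119, 112, 83.9 and 115 CPM in sIVs retinas. The groups shared nearly the same range. Means were 106 ± 13.9 and 108 ± 16.0 CPM (SD, n = 4 each), which is a difference on the log2 scale of 0.02 ± 0.14 (SE; edgeR adjusted p = 0.961), 0.12 without sIVs replicate 4 and -0.005 with library totals as the only scaling. With 1163 to 2023 counts per library it was the most deeply covered member, and its 95% interval ran from a 0.81-fold to a 1.27-fold level. Its spread over the 8 libraries, a coefficient of variation of 13.1%, exceeded the 2.5% that counting alone would give.

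Kcnj8 and Abcc9 encode the pore and the sulphonylurea receptor of the ATP-sensitive potassium channel of pericytes and vascular smooth muscle, through which these cells hyperpolarize and relax. They are neighbours on the minus strand of chromosome 6, Kcnj8 at 142564837 to 142571614 and Abcc9 at 142587862 to 142702315, with 16247 bases between them. The 250 bases before the RefSeq starts of both genes are shown because they share a locus and a channel yet differed across libraries, and the same stretch of Acta2 because this gene was highest in sIVs replicate 4, where Abcc9 was lowest (build GRCm38.p6, minus strand; Kcnj8 at chr6:142571615-142571864, Abcc9 at chr6:142702275-142702524, Acta2 at chr19:34255374-34255623). Capitals mark matches to a CArG box, the binding motif of serum response factor, with 1 base other than A or T in its core.
Kcnj8: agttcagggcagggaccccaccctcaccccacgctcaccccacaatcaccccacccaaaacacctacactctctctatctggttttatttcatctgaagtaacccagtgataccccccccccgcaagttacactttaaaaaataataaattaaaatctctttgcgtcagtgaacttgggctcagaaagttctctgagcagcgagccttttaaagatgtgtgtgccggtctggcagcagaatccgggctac
Abcc9: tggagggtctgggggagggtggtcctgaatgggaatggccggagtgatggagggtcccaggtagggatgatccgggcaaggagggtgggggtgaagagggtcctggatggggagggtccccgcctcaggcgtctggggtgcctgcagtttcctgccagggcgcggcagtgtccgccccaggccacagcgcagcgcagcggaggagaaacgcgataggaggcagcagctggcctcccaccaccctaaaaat
Acta2: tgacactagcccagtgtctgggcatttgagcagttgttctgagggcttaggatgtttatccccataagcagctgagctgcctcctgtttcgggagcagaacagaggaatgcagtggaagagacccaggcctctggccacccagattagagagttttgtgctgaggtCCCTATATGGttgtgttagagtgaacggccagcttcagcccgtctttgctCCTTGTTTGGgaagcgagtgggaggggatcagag
The Abcc9 stretch held 66.8% G and C with 12 CpG sites and the Kcnj8 stretch 49.2% with 6. Neither held such a match. Acta2 held 2, at -84 to -75 and -34 to -25 from its start (the base before the start being -1). Each matches on both strands. Of 32851 RefSeq promoter windows of 300 bases (250 before to 50 after a start), 8.5% held at least 1 such match on either strand, and 1.63% held an exact CArG box. None of the 6 members with an entry (Rgs5, Kcnj8, Abcc9, Cspg4, Notch3 and Acta2) held an exact one. Acta2 and Abcc9 also differ in listed length (1781 and 8373 bases), and sIVs replicate 4 is the library with the strong length pattern. Whether the matches bear on the levels of any member was not tested.

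Kcnj8 stood at 1.81, 4.46, 7.06 and 5.42 CPM in PBS and at 2.51, 5.04, 7.01 and 5.43 CPM in sIVs retinas. Replicate 1 was lowest and replicate 4 highest in each group, and the groups covered the same range. The log2 difference was 0.09 ± 0.42 (SE; 95% interval -0.85 to 1.04; edgeR adjusted p = 0.947), and -0.12 without sIVs replicate 4. Counts were 24 to 107 per library. Its coefficient of variation over the libraries, 39.1%, was above the 11.7% of counting alone.

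Abcc9 stood at 11.8, 17.1, 17.7 and 19.4 CPM in PBS and at 13.8, 15.1, 8.97 and 13.1 CPM in sIVs retinas. All 4 sIVs libraries lay below PBS replicates 3, 4 and 5, and PBS replicate 1 lay among them. The log2 difference was -0.37 ± 0.21 (SE; 95% interval -0.84 to 0.09; edgeR adjusted p = 0.81), and -0.24 without sIVs replicate 4. Per length, the ratio of Kcnj8 to Abcc9 ranged from 0.506 in PBS replicate 1 to 2.57 in sIVs replicate 4, with a median of 1.01. Kcnj8 has a listed length of 2548 bases and Abcc9 of 8373, and the library with the strong length pattern gave the highest ratio; the part of length in it was not tested.

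Cspg4 (chromosome 9, 56865033 to 56899870, plus strand) encodes the NG2 proteoglycan on the surface of pericytes, which oligodendrocyte precursors also carry. It stood at 3.86, 7.06, 6.38 and 11.6 CPM in PBS and at 4.66, 5.04, 5.70 and 5.78 CPM in sIVs retinas. PBS replicate 5 was the highest and PBS replicate 1 the lowest, so that the sIVs libraries lay inside the PBS range with an SD of 0.54 CPM against 3.21 CPM. The log2 difference was -0.45 ± 0.30 (SE, 95% interval -1.13 to 0.23, edgeR adjusted p = 0.81). It was -0.49 without sIVs replicate 4 and shrank to -0.13 without PBS replicate 5. Of the precursor markers Olig2 had no count in any library, Olig1 was above 0 only in sIVs replicate 4 (0.327 CPM), and Sox10 reached at most 1.44 CPM. The other 2 genes of that list, which other cells also express, were higher: Pdgfra stood at 10.7 to 18.8 CPM (log2 difference 0.03 ± 0.18 SE; 0.04 without sIVs replicate 4) and Vcan at 1.05 to 20.9 CPM (-0.39 ± 1.06 SE; -0.05 without it).

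**Figure D2:**
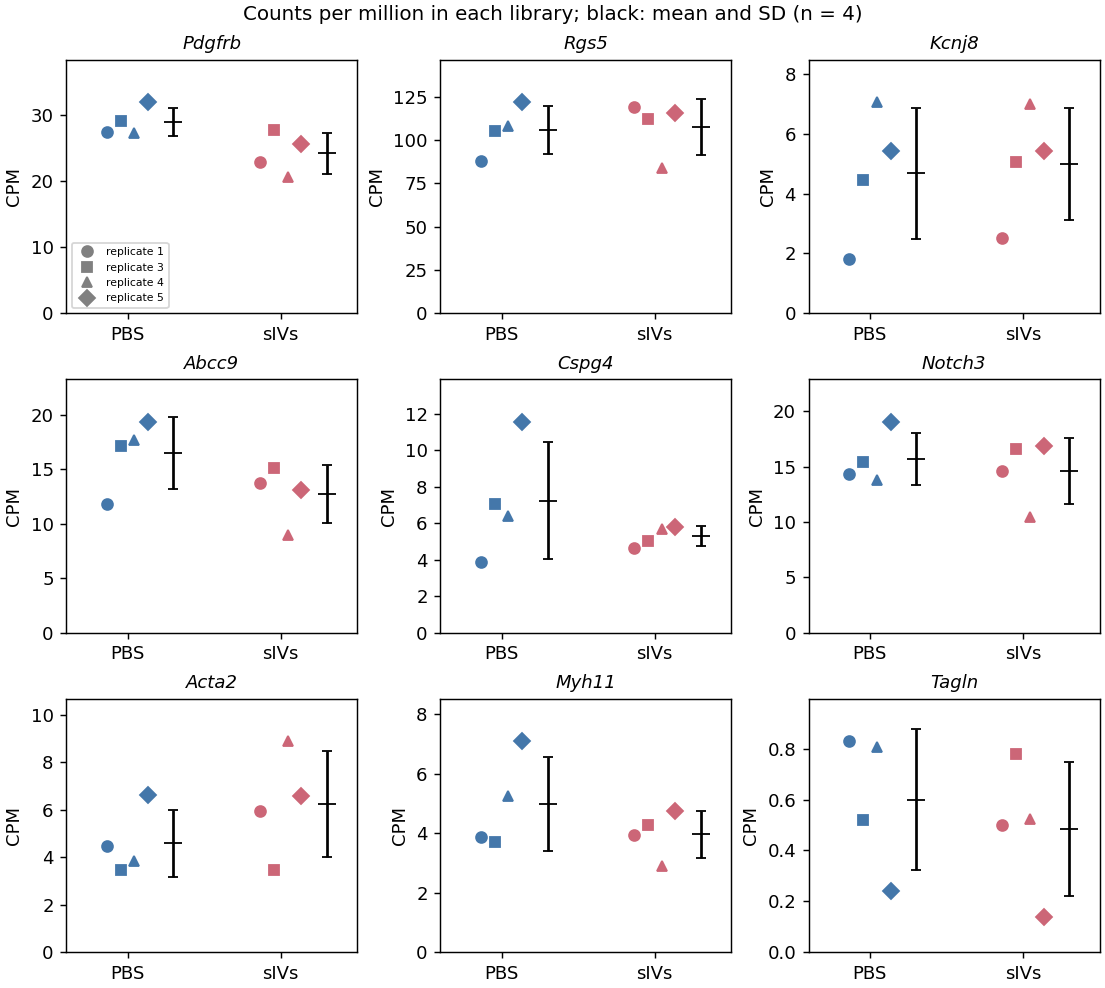
CPM of each gene in every PBS (blue) and sIVs (red) library, with a symbol for each replicate number and the mean and SD (n = 4) of each group in black; each axis starts at 0. The mean is lower in sIVs retinas for Pdgfrb (24.2 against 28.9 CPM), Abcc9, Cspg4, Notch3, Myh11 and Tagln and higher for Rgs5, Kcnj8 and Acta2, and the groups overlap in all 9 panels.

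Acta2 (chromosome 19, 34241090 to 34255336, minus strand), the actin of smooth muscle, stood at 4.46, 3.47, 3.83 and 6.62 CPM in PBS and at 5.95, 3.48, 8.91 and 6.60 CPM in sIVs retinas. The highest value was in sIVs replicate 4, and the 2 lowest were in replicate 3 of each group. Means were 4.60 ± 1.41 and 6.23 ± 2.23 CPM (SD, n = 4 each), which is a difference on the log2 scale of 0.44 ± 0.32 (SE; 95% interval -0.27 to 1.15; edgeR adjusted p = 0.81), and 0.21 without sIVs replicate 4. Actins are closely similar, so reads can be shared between them. Actb, at 379 to 711 CPM, and Actg1, at 419 to 568 CPM, were also highest in sIVs replicate 4, as was Acta1, at 3.43 to 7.53 CPM. Actc1, at 3.43 to 6.95 CPM, was instead highest in sIVs replicate 1, and the smooth muscle gamma actin gene Actg2 was at most 0.12 CPM. Sharing of reads was not tested, so the level of Acta2 is uncertain.

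Myh11 (chromosome 16, 14194535 to 14291372, minus strand), the motor of smooth muscle contraction, stood at 3.86, 3.70, 5.24 and 7.10 CPM in PBS and at 3.94, 4.26, 2.88 and 4.74 CPM in sIVs retinas. PBS replicates 4 and 5 were above all sIVs libraries and PBS replicates 1 and 3 among them. The log2 difference was -0.33 ± 0.27 (SE; 95% interval -0.94 to 0.28; edgeR adjusted p = 0.81), -0.21 without sIVs replicate 4 and -0.11 without PBS replicate 5. Acta2 and Myh11 thus had differences of opposite sign, neither past the test. Their ratio per length was 3.12 to 6.44 in 7 libraries and 13.2 in sIVs replicate 4.

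Tagln (chromosome 9, 45929619 to 45936058, minus strand), an actin-binding protein of smooth muscle, had 2 to 12 counts per library and did not pass the low-count filter. It stood at 0.83, 0.52, 0.81 and 0.24 CPM in PBS and at 0.50, 0.78, 0.52 and 0.14 CPM in sIVs retinas. Replicate 5 was lowest in each group. With no filter its log2 difference was -0.29 ± 0.57 (SE; edgeR adjusted p = 0.89 over 31766 genes). On the opposite strand the antisense gene Gm48529 shares 1241 exon bases with Tagln and stood higher, at 0.82 to 2.23 CPM, and Pcsk7 shares 108. Whether counting used strand is not given in the sources used here, so the level of Tagln is uncertain.

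**Figure D3:**
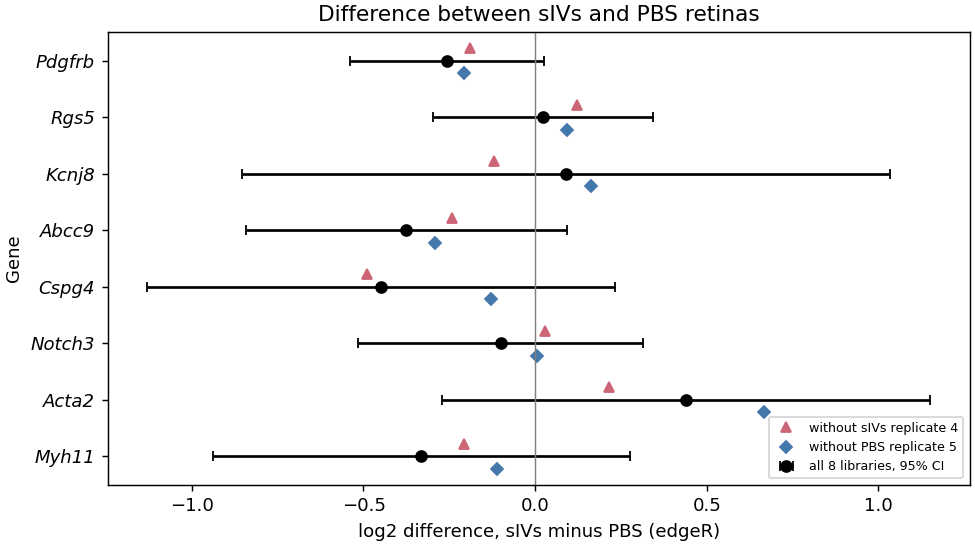
Log2 difference between sIVs and PBS retinas for the 8 tested genes, with the 95% interval over all 8 libraries (black), without sIVs replicate 4 (red triangles) and without PBS replicate 5 (blue diamonds). Every interval includes 0, and Notch3 changes sign when either library is left out (0.03 and 0.01).

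Extremes recurred in 2 libraries. PBS replicate 5 was highest of the 8 for Pdgfrb, Rgs5, Abcc9, Cspg4, Notch3 and Myh11, and sIVs replicate 4 was lowest for Pdgfrb, Rgs5, Abcc9, Notch3 and Myh11 and highest for Acta2. The other extremes lay elsewhere: PBS replicate 1 was lowest for Kcnj8 and Cspg4, PBS replicate 3 lowest for Acta2 and PBS replicate 4 highest for Kcnj8, while Tagln was highest in PBS replicate 1 and lowest in sIVs replicate 5. The summed level of the 6 pericyte members was 147, 179, 181 and 209 CPM in PBS and 177, 182, 137 and 182 CPM in sIVs retinas. Rgs5 alone held 83.9 to 122 CPM of it. Without both libraries, a setting chosen after seeing the data, differences were -0.14 for Pdgfrb, -0.15 for Abcc9, -0.16 for Cspg4 and 0.45 for Acta2, while Notch3 was at 0.14 and Myh11 at 0.02.

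**Figure D4:**
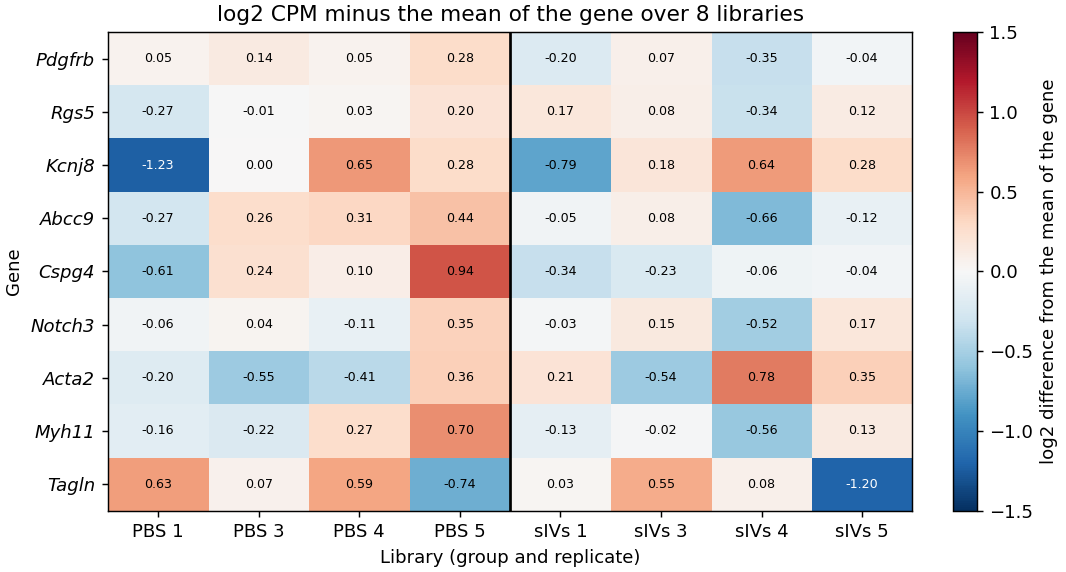
Log2 CPM of each gene in each library minus the gene's mean over the 8 libraries, red above and blue below, with the value in each cell. sIVs replicate 4 is low for Pdgfrb, Rgs5, Abcc9, Notch3 and Myh11 and high for Kcnj8 and Acta2, and PBS replicate 5 is above the mean for 8 of the 9 genes, Tagln excepted.

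In sIVs replicate 4 the shorter members were mostly high and the longer ones low. Acta2 (1781 bases) and Kcnj8 (2548 bases) were 0.89 and 0.73 above the mean of the other 7 libraries on the log2 scale, while Abcc9, Notch3, Myh11 and Pdgfrb (5478 to 8373 bases) had values from -0.76 to -0.40. Tagln (1988 bases) was at 0.09. The median of protein-coding genes in those length classes was 0.76 for Acta2 and Tagln, 0.19 for Kcnj8 and -0.27 for the other 4. Rgs5 (4546 bases) was at -0.38 in a class with a median of 0.19, and Cspg4 (11931 bases) at -0.07 in a class with a median of -0.70. The part of the length pattern in the members' values was not tested.

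**Figure D5:**
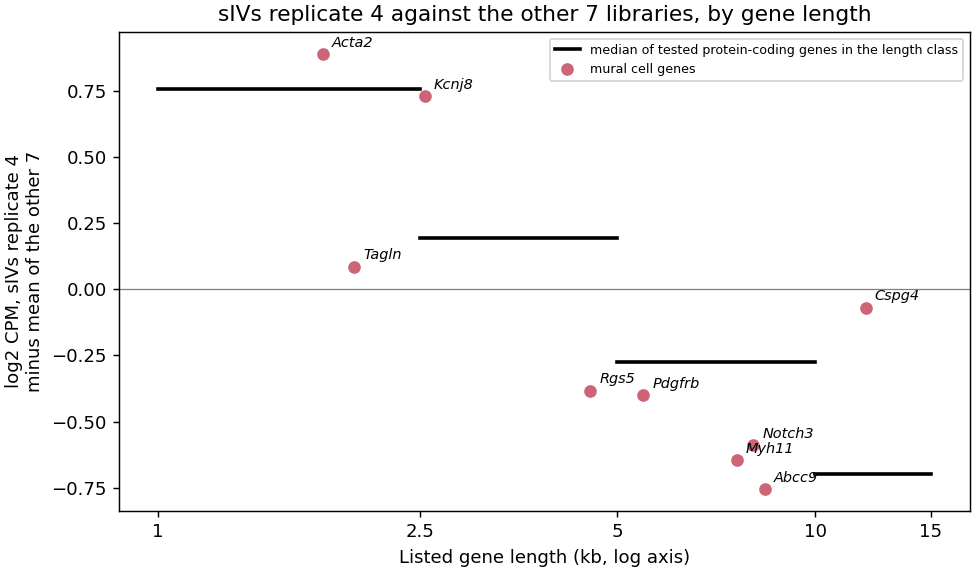
Log2 CPM in sIVs replicate 4 minus the mean of the other 7 libraries against listed gene length (log axis) for the 9 genes (red), with the median of tested protein-coding genes in each of 4 length classes (black lines, falling from 0.76 to -0.70). Acta2 lies near the line of its class, Rgs5 below and Cspg4 above theirs.

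PBS replicate 5 shared high levels of fibrillar collagen genes, and of some others, with sIVs replicate 5. Col1a1, a fibrillar collagen chain, stood at 9.45 and 12.4 CPM in these libraries and at most 2.20 CPM in the other 6, and Vcan, a matrix proteoglycan, at 20.9 and 17.2 CPM against at most 4.23 CPM. Col1a2 (26.5 and 27.4 CPM against at most 10.9 CPM) and Col3a1 (9.45 and 14.0 CPM against at most 3.41 CPM) had the same order. Other genes of the fibroblast and matrix list did not: Fn1 and Igfbp5 were highest in PBS replicate 5 but in sIVs replicate 5 lay within the range of the other 6 libraries, Col6a1 was highest in PBS replicate 3 (53.3 CPM) and Mgp in sIVs replicate 4 (20.2 CPM). Among the other pericyte markers described below, the transcription factor gene Zic1 stood at 24.9 and 23.3 CPM against at most 8.91 CPM. Ifitm1, also among them, stood at 4.09 and 4.06 CPM against at most 1.57 CPM, whereas Vtn and Cox4i2 were highest in sIVs replicate 4. Of 10 genes tested on the fibroblast and matrix list 0 passed, 5 above and 5 below 0. Those of smallest p were Mgp (log2 difference 0.96 ± 0.38 SE, and 0.52 without sIVs replicate 4) and Fn1 (-0.30 ± 0.25 SE, and -0.14 without it). All 12 listed genes summed to 207 to 347 CPM in PBS and 191 to 292 CPM in sIVs retinas, and Dcn, a defining fibroblast gene, reached at most 1.17 CPM. Cspg4 and Myh11 were highest in PBS replicate 5 (11.6 and 7.10 CPM). In sIVs replicate 5 they stood at 5.78 and 4.74 CPM, the highest of the sIVs libraries. Notch3 and Acta2 stood at 19.1 and 6.62 CPM in PBS replicate 5 and at 16.8 and 6.60 CPM in sIVs replicate 5. No other library was higher for Notch3, and only sIVs replicate 4 was for Acta2. Pdgfrb stood at 31.9 CPM in PBS replicate 5 and at 25.6 CPM in sIVs replicate 5, which was below every PBS library. The part of such tissue in the members' values was not tested.

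Of 15 other pericyte marker genes tested, 0 passed; 10 had a difference above 0 and 5 below, with a median of 0.23 that was 0.02 without sIVs replicate 4. Vtn, which encodes the matrix protein vitronectin and has a listed length of 2030 bases, stood at 707, 538, 673 and 572 CPM in PBS and at 767, 612, 1068 and 673 CPM in sIVs retinas (log2 difference 0.33 ± 0.19 SE; 0.13 without sIVs replicate 4). Cox4i2, an oxygen-sensitive subunit isoform of cytochrome oxidase with a listed length of 788 bases, stood at 12.1, 19.0, 17.7 and 18.7 CPM and at 18.3, 19.9, 54.0 and 23.1 CPM (log2 difference 0.77 ± 0.35 SE; edgeR adjusted p = 0.81; 0.27 without sIVs replicate 4). Both short genes were highest in sIVs replicate 4, the library where Pdgfrb, Rgs5, Abcc9 and Notch3 were lowest. Steap4, a metalloreductase gene, ranged from 0.378 CPM in PBS replicate 1 to 87.3 CPM in PBS replicate 3. Vtn lay above every member in each library (Rgs5, the highest member, reached at most 122 CPM). Which cells gave the Vtn and Steap4 transcripts cannot be told from bulk libraries.

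Among 14 other smooth muscle contractile genes tested, 0 passed, with 8 differences above and 6 below 0 and a median of 0.08 (0.05 without sIVs replicate 4). Tpm2, a tropomyosin gene, had no overlap between groups, at 0.98, 1.10, 1.01 and 0.90 CPM in PBS and 1.29, 1.56, 1.57 and 1.93 CPM in sIVs retinas (log2 difference 0.66 ± 0.25 SE; edgeR adjusted p = 0.81), and its difference was 0.67 without sIVs replicate 4. Of all genes tested 2.01% had no overlap. Flna, an actin cross-linker, had a log2 difference of -0.33 ± 0.22 (SE; -0.20 without that library). The calponin gene Cnn1, a marker of mature smooth muscle, was at most 0.393 CPM. Of 7 regulators around serum response factor 0 passed: Srf itself had a log2 difference of 0.002 ± 0.09 (SE), its partner Myocd, at 0.327 to 1.27 CPM, had -0.64 ± 0.38, and the related coactivator gene Mkl2 had -0.39 ± 0.22. Without sIVs replicate 4 these were 0.005 for Srf, -0.46 for Myocd and -0.22 for Mkl2.

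The ligands and partners of the 2 receptors did not pass either. Of 5 platelet-derived growth factor ligand and receptor genes, 0 passed and 5 had a difference above 0 (median 0.13; 0.08 without sIVs replicate 4). Pdgfb, the endothelial ligand of the Pdgfrb product, stood at 3.70, 6.54, 5.98 and 6.56 CPM in PBS and 4.51, 5.97, 7.14 and 5.98 CPM in sIVs retinas (log2 difference 0.05 ± 0.24 SE; -0.06 without sIVs replicate 4). Pdgfa had a difference of 0.54 ± 0.30 and Pdgfc of 0.16 ± 0.22 (SE), which fell to 0.16 and 0.08 without that library. Of 15 other Notch pathway genes 0 passed, 8 above and 7 below 0, with a median of 0.01 (-0.05 without sIVs replicate 4). Hes5, a transcriptional target of Notch signalling, had 0.57 ± 0.23 (SE; edgeR adjusted p = 0.81; 0.37 without sIVs replicate 4), Hey1 had 0.28 ± 0.18 (0.07 without it), and Heyl, a target of Notch3 in smooth muscle, had -0.02 ± 0.33 (-0.05 without it).

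Of 4 tested genes of other ATP-sensitive channel subunits and inward rectifiers, 0 passed and 4 were below 0 (median -0.19; -0.10 without sIVs replicate 4). Kcnj11 and Abcc8, the pore and receptor of the neuronal form of the channel, had log2 differences of -0.23 ± 0.15 and -0.15 ± 0.14 (SE), and Kcnj10, the main potassium channel of Müller glia, had -0.23 ± 0.19. Without sIVs replicate 4 these were -0.22 for Kcnj11, -0.13 for Abcc8 and -0.07 for Kcnj10. Of 19 endothelial genes 0 passed, 13 above and 6 below 0, with a median of 0.17 that became 0.005 without sIVs replicate 4. The tight junction gene Cldn5 (0.55 ± 0.29 SE; 0.24 without sIVs replicate 4) and the sialomucin gene Emcn (0.46 ± 0.25 SE; 0.35 without it) had the smallest p. The endothelial summed level was 715 to 1059 CPM in PBS and 730 to 945 CPM in sIVs retinas, lowest in PBS replicate 1 and highest in PBS replicate 5. Kdr alone held 252 to 524 CPM of it. Single genes ordered the libraries differently: Flt1 was highest in PBS replicate 5, Pecam1 in sIVs replicate 1 and Cldn5 in sIVs replicate 4.

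Across the 8 libraries no relation between members passed correction. Of 28 pairs among the 8 tested members, 21 had a positive Pearson r on log2 CPM (median 0.458), and 0 had an adjusted p under 0.05 in the exact permutation test. The share of positive pairs among genes at large was not computed, so these values are not read as particular to the members. The highest was Pdgfrb with Abcc9 (r = 0.834, exact permutation p = 0.0105, adjusted p = 0.13; Spearman rho = 0.714, exact permutation p = 0.0576, adjusted p = 0.389). Without sIVs replicates 1 and 4, the libraries farthest from the median of Pdgfrb, r was 0.717. The relation of Abcc9 with Notch3 (r = 0.751, exact permutation p = 0.0336, adjusted p = 0.13; rho = 0.476, exact permutation p = 0.243, adjusted p = 0.619) fell to -0.151 without PBS replicate 5 and sIVs replicate 4, the libraries farthest from the median of Abcc9. Without sIVs replicate 4 alone it was 0.37. Leaving out the extremes of a gene narrows its range, which can itself lower r.

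Genes outside the list were also compared with each member. Among 11731 protein-coding genes at a mean of at least 5 CPM, the profile most like Pdgfrb over the 8 libraries was that of Epha5 (Pearson r = 0.983), followed by Neto2 (0.972) and Acot11 (0.971). Scn4b, Mertk and Cdh18 were closest to Rgs5 (0.966, 0.951 and 0.936), and Lnx2 and Unc5c were among the closest to Abcc9 (0.986 and 0.971). Sptlc2, Rnase4 and Hey2 were closest to Kcnj8 (0.965, 0.961 and 0.954), and Pard3b, Ubash3b and Fndc3b to Notch3 (0.985, 0.983 and 0.983). For Cspg4 they were Wnt5a, Cyfip1 and Fadd (0.929, 0.923 and 0.913), for Acta2 Ldhd, Alad and Tpp1 (0.950, 0.941 and 0.930) and for Myh11 Ust, Twsg1 and Hunk (0.966, 0.938 and 0.938). These are the highest of many coefficients over the same 8 libraries and are given as a description, without a test. Hey2 is also on the Notch pathway list.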

How the data were processed

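RNA was extracted from mouse retina, selected for poly(A) and made into strand-marking libraries, per the labels' protocols; reads were paired, 150 bp long. The authors deposited raw counts per gene and FPKM values, which in each library equalled the counts divided by listed gene length and total counts times a constant of 0.943 to 1.03. The submitters' processing notes name mm10 as the build; for the aligner and the counter, the sources used here give none. For 7 of the 9 members start and end matched GENCODE M21; those of Notch3 and Acta2 did not. Total counts were 13803958 to 16622259 per library.

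Groups and replicate numbers came from sample titles. Genes kept by filterByExpr (17004 of 54532) were tested with edgeR 4.0.16 (R 4.3.3): TMM factors, quasi-likelihood F test, two-sided, group as the only term, Benjamini-Hochberg adjustment at 0.05. Standard errors are the absolute log2 fold change over the square root of F, and 95% intervals use them, so both are approximate. CPM are counts over TMM-scaled totals; log2 CPM used a prior count of 2. Alternatives used DESeq2 1.42.0, limma 3.58.1 (voom with quality weights; log2(FPKM + 1) and log2(FPKM + 0.1)), other scaling factors or filters, a block for the replicate number, and each library left out in turn. The fit was tested on simulated data. Correlations used exact permutation of 40320 orders.

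All 9 members were named, with the 2 genes of smallest p in each marker and pathway list where none passed, and for each tested member the 3 genes with the highest r, of which 1 is not reported here; other genes named were chosen after their values were seen. The members and lists were chosen with earlier results of these data known. Promoter sequences are from RefSeq (GRCm38.p6), which held 6 of the 9 members and none for Pdgfrb, Myh11 or Tagln. No column of another sample was present.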

Additional observations from a re-analysis of the deposited data

How the results depend on the processing

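Under each of 19 alternatives 0 genes passed over the whole table, and no member did; the lowest adjusted p of a member was 0.577. Pdgfrb, Abcc9 and Cspg4 kept a negative and Acta2 a positive difference in every setting run. Leaving out each library in turn, the differences ranged from -0.33 to -0.19 for Pdgfrb, -0.51 to -0.24 for Abcc9, -0.66 to -0.13 for Cspg4, 0.21 to 0.67 for Acta2, -0.45 to -0.11 for Myh11, -0.061 to 0.12 for Rgs5, -0.18 to 0.35 for Kcnj8 and -0.18 to 0.03 for Notch3. The sign changed for Rgs5 with library totals only (-0.0048), for Kcnj8 and Notch3 with limma-voom quality weights (-0.22 and 0.025), and for Kcnj8, Notch3 and Myh11 without both PBS replicate 5 and sIVs replicate 4 (-0.042, 0.14 and 0.018; Rgs5 was at 0.20), a setting chosen after seeing the data; the cause was not tested. Without a low-count filter 803 genes had an unadjusted p under 0.05. Mean and median FPKM, and the means without each library, differed by less than the SD of each member. With 8 libraries this holds by arithmetic for any gene, so it does not test how stable the levels are.

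Replicate numbers are shared between the groups, but the labels do not say what they stand for. Same-numbered libraries had correlations of their deviations from the group means of 0.596, 0.0246, 0.227 and 0.514 for numbers 1, 3, 4 and 5. Libraries of unlike number had -0.509 to 0.256. The main test did not pair the samples, because the labels name no shared animal or day and number 3 was near 0. Whether the numbers mark pairs is not settled. With the replicate block 0 genes passed (588 unadjusted), and the differences were -0.26 for Pdgfrb, 0.02 for Rgs5, 0.14 for Kcnj8, -0.38 for Abcc9, -0.36 for Cspg4, -0.11 for Notch3, 0.41 for Acta2 and -0.31 for Myh11. The libraries of numbers 1, 4 and 5 correlated best with their own number, and those of number 3 did not. For Kcnj8 the SE was 0.19 with the block and 0.42 without it. Depth limits Tagln most, whose counting error alone would give a coefficient of variation of 35.4%.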

Other observations

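Rgs5 belongs to a large family of regulators of G protein signals, and 14 of 16 other listed family genes were tested. None passed (edgeR's quasi-likelihood test), with 8 differences above and 6 below 0 and a median of 0.01 with or without sIVs replicate 4. Rgs2, which acts on signals that contract smooth muscle, differed by 0.32 ± 0.21 (log2, SE; 0.09 when sIVs replicate 4 was left out), and Rgs16 by 0.16 ± 0.12 (SE; 0.10 without that library).

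The remaining marker lists held genes of cells that a dissected retina can carry, and 0 of their genes passed. Haemoglobin genes had few counts: Hbb-bs had 2.24 ± 0.89 CPM in the PBS group against 5.95 ± 4.14 CPM in the sIVs group, and Hbb-bt 0.74 ± 0.56 and 2.44 ± 1.41 CPM (SD, n = 4 each), with log2 differences of 1.41 ± 0.53 and 1.70 ± 0.64 (SE; edgeR adjusted p = 0.81). Without sIVs replicate 4 these were 0.91 and 1.85. Alas2, an enzyme gene of haem synthesis in red cells, went the other way at -0.73 ± 0.42 (SE; -0.58 without that library). The 5 erythrocyte genes summed to 5.24 to 9.14 CPM in PBS and 9.37 to 26.7 CPM in sIVs retinas. The groups did not overlap, by a narrow margin at low counts. Of all single genes tested 2.01% had no overlap, and the share for sums of genes was not computed. Highest was sIVs replicate 4, and the next was 15.4 CPM. The 10 skeletal muscle genes summed to 6.74 to 12.3 CPM over the 8 libraries, and Acta1 and Ckm differed by 0.30 ± 0.26 and 0.09 ± 0.35 (log2, SE; 0.04 and 0.19 without sIVs replicate 4). The 8 ciliary body and lens genes found summed to 28.7 to 88.1 CPM in PBS and 42.4 to 148 CPM in sIVs retinas, highest in sIVs replicate 4; Cryab and Crybb3 differed by 0.41 ± 0.42 and 0.65 ± 0.51 (log2, SE; -0.004 and 0.17 without it). Of the pigment epithelium genes, Rpe65 and Rgr differed by 2.90 ± 1.32 and 2.48 ± 1.02 (log2, SE; 0.29 and 0.65 without sIVs replicate 4). The 5 astrocyte genes summed to 213 to 492 CPM in PBS and 240 to 400 CPM in sIVs retinas, with 2 differences above and 3 below 0 and a median of -0.13 (-0.17 without sIVs replicate 4). Among them S100b differed by 0.85 ± 0.31 and Aqp4 by -0.21 ± 0.22 (log2, SE; 0.47 and -0.12 without that library). The 7 Müller glia genes summed to 4180 to 5160 CPM and 4226 to 5046 CPM, where Rlbp1 differed by 0.25 ± 0.20 (log2, SE; 0.01 without sIVs replicate 4). Of the rod genes, Sag and Rcvrn differed by 0.25 ± 0.19 and 0.39 ± 0.24 (log2, SE; 0.08 and 0.15 without it).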
